A study of Raphidocelis subcapitata with 270 samples.

Results

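The 60 genes described here had 3′ RNA counts above solvent controls under both 2-tert-butyl-4-methoxyphenol and 3,4-Dichlorophenyl isocyanate in the freshwater green alga Raphidocelis subcapitata. Their rank came from how far the lower of these 2 rises exceeded the highest value in the other 10 chemicals. They were selected on measured values, the D1 and DMSO counts of all 12 chemicals, from 13429 genes. Counts were scaled to a library total of 1000000 (CPM). For each of 12 chemicals, the log2 ratio of mean CPM + 2 at level D1 to mean CPM + 2 in dimethyl sulfoxide (DMSO), the solvent, was computed. Genes with a mean of at least 5 CPM over the 18 DMSO libraries numbered 9381, and 359 of them had a ratio of at least 0.5 in both chemicals. The score of a gene was the lower of those 2 ratios less the highest ratio in the other 10 chemicals. It was above 0 for 177 genes, and the 60 highest scores are the members. The D1 and DMSO values below are therefore a description and carry no test.

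All libraries came from algae in exponential growth, kept for 24 h in multi-well plates with 1 chemical or with DMSO alone. The methoxyphenol groups were 2-tert-butyl-4-methoxyphenol at levels D1 to D7. They shared 3 DMSO libraries with 7 levels of the chemical labelled Metribuzin-DA. The isocyanate groups were 3,4-Dichlorophenyl isocyanate at D1 to D7. They shared 3 other DMSO libraries with 7 levels of the chemical labelled Metolachlor OA. Each group held 3 libraries, lettered A, B and C, and both chemicals of the rule stood second in the name of their control set. The labels give neither the concentration of a level nor the order of the levels, so each level is a named group, and D7 is only the label furthest from D1. No label tells whether libraries A, B and C grew as separate cultures. The p-values thus reflect variation among libraries that could be purely technical. The files pair no identifier with a gene name, so genes appear by identifier, and neither a function nor the marker genes of the alga could be checked.

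2-tert-Butyl-4-methoxyphenol is a synthetic phenolic antioxidant. 3,4-Dichlorophenyl isocyanate is a reactive aromatic isocyanate, an intermediate in the making of phenylurea herbicides. Plant and algal cells commonly answer foreign chemicals with transcripts for oxidising and conjugating enzymes, transporters, chaperones and protein turnover. Genes raised by unlike chemicals are often of this general kind, while other genes follow a single chemical. Whether the members belong to any such class was not tested.

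The 90 libraries of the 2 control sets held 731426 to 1752548 counts, and the 270 libraries of the series 596651 to 1909938. No pair of libraries within a group agreed within sampling noise (chi-square per degree of freedom 1.62 to 9.70), so none was counted as a duplicate. Replicate A of the methoxyphenol at D1 stood apart from replicates B and C. Its chi-square values per degree of freedom were 8.58 and 9.70, against 2.32 between B and C. The median log2 ratio of the members at D1 was 1.59 with it and 1.66 without it, and 58 of the 60 members would also be chosen without it. In bulk RNA, a change in the number of cells and a change in RNA per cell cannot be told apart.

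At D1, the values that chose the members ran from 0.54 to 4.497 on the log2 scale for the methoxyphenol, with a median of 1.59. For the isocyanate they ran from 0.50 to 3.03, with a median of 1.08. The methoxyphenol value was the higher of the pair in 52 of 60 members. A log2 value of 2 or more was seen in 23 members with the methoxyphenol and in 4 with the isocyanate. A value of 1 or more was seen in 52 members with the methoxyphenol (4.1% of the 9381 genes) and in 38 with the isocyanate (1.36%). The rule itself fixed that all 60 reached 0.5, as did 13.3% and 9.31% of those genes. All 3 D1 libraries lay above all 3 DMSO libraries in 58 members for the methoxyphenol, where 11.1% of the 9381 genes did so, and in 59 for the isocyanate, where 12.6% did. Since the rule used these libraries, nothing is read from those counts. Scores ran from 0.37 to 1.51 with a median of 0.58. The last members, Rsub_08707 and Rsub_09721, had scores of 0.3717 and 0.3716, and the first genes left out, Rsub_00285 and Rsub_08638, had 0.3699 and 0.3696, so the list has no natural end there.

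**Figure D1:**
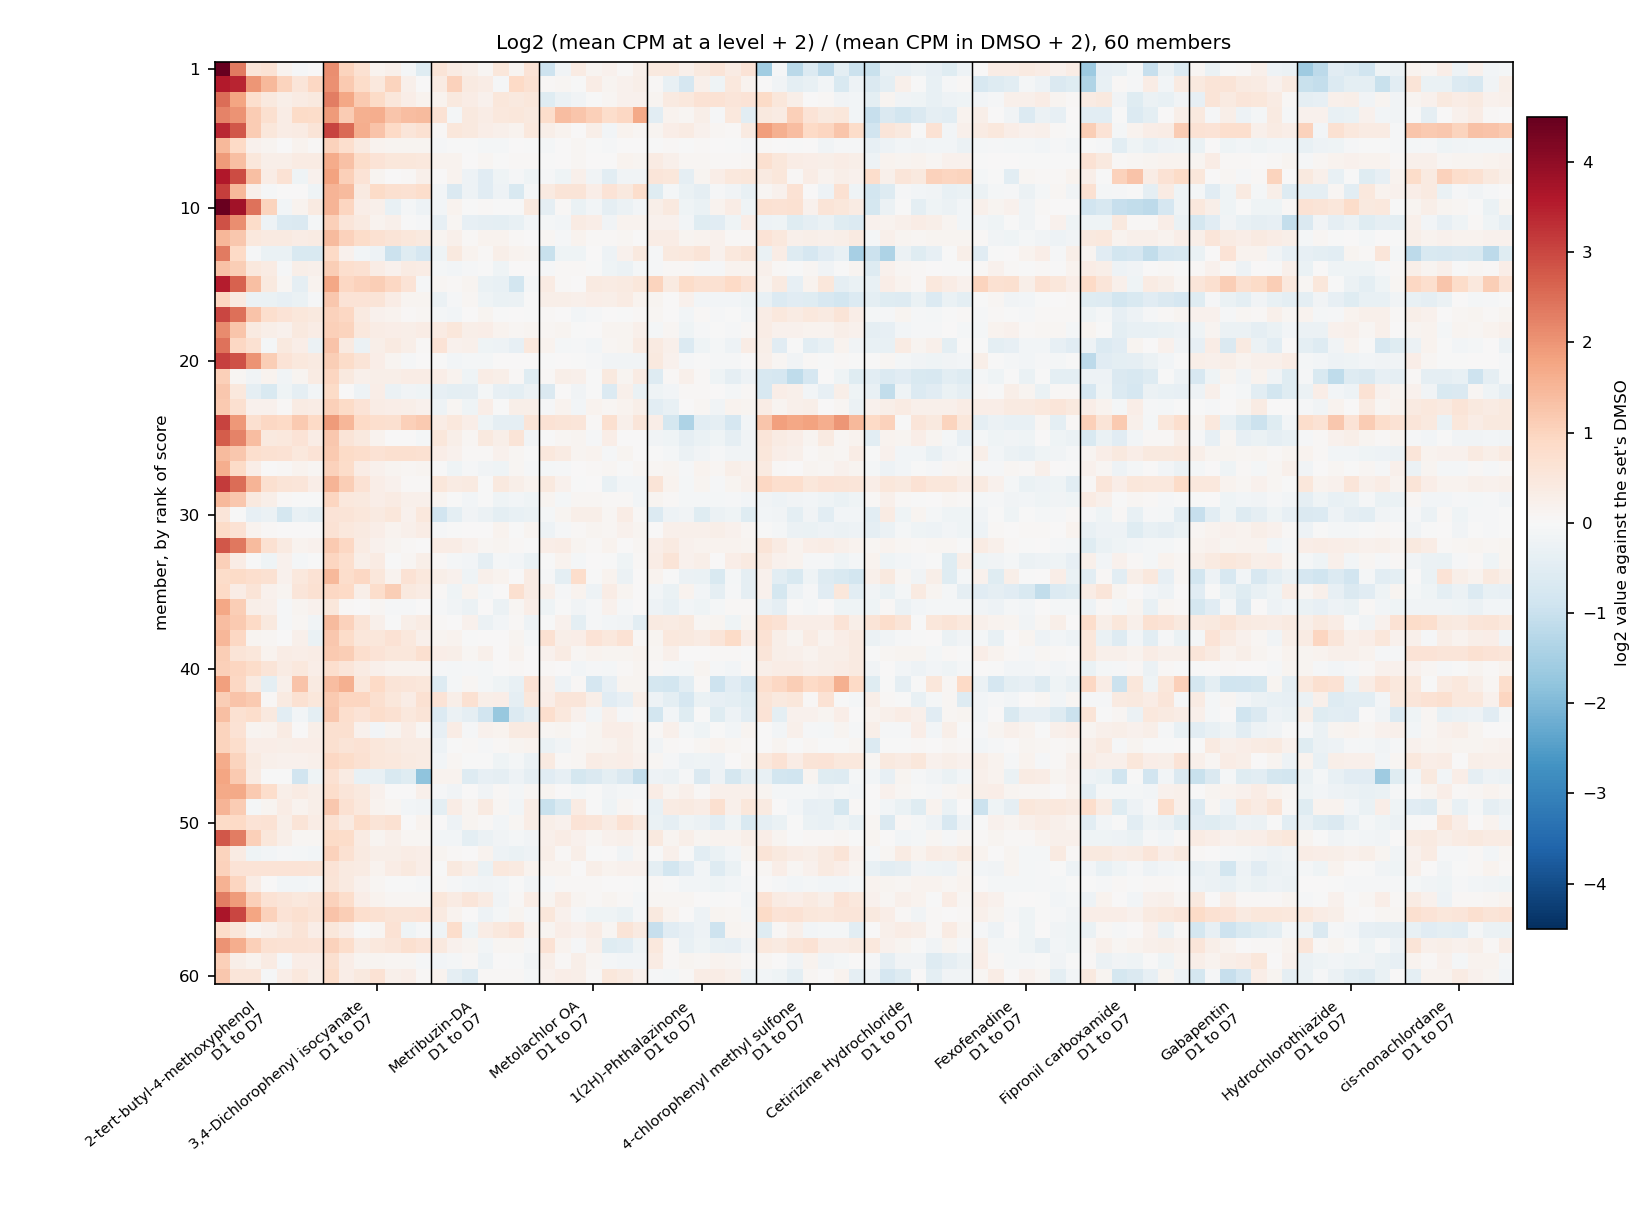
Log2 ratio of mean CPM + 2 at each level to mean CPM + 2 in the DMSO libraries of the set, for the 60 members (rows, by rank of score) and the 7 levels of 12 chemicals (columns, D1 at the left of each block). Colours run from blue (below DMSO) to red (above DMSO). The red cells lie mostly at D1 and D2 of the 2 chemicals at the left, where the medians at D1 are 1.59 and 1.08.

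Rsub_05085 had the highest score, 1.51. In the DMSO libraries of the methoxyphenol set it was at 8.63, 13.2 and 7.70 CPM, and at D1 of the methoxyphenol at 189, 306 and 301 CPM. In the isocyanate set it was at 57.0, 65.6 and 51.7 CPM in DMSO and at 262, 254 and 250 CPM at D1. The level in DMSO thus differed between the sets, while the D1 levels of the chemicals overlapped. Its D1 log2 ratios were 4.497 and 2.10. In the other chemicals the ratio ran from 0.59 with Metribuzin-DA down to -1.57 with 4-chlorophenyl methyl sulfone, -1.59 with Hydrochlorothiazide and -1.64 with Fipronil carboxamide, so the gene with the highest score lay well below DMSO in several chemicals outside the rule.

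Rsub_10973 had the next score, 1.48, with DMSO values of 5.40, 9.90 and 11.6 CPM in the methoxyphenol set and D1 values of 94.6, 161 and 126 CPM. In the isocyanate set it went from 18.01, 9.57 and 8.61 CPM in DMSO to 42.5, 65.1 and 60.7 CPM at D1. The D1 and DMSO groups did not overlap in either set. Rsub_07655 had the largest methoxyphenol ratio after Rsub_05085, 4.46, from 14.0, 10.7 and 24.7 CPM in DMSO to 499, 371 and 340 CPM. Its isocyanate ratio was 1.54, from 57.0, 42.4 and 78.5 CPM to 190, 165 and 173 CPM.

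Rsub_11535 and Rsub_04959 had the largest isocyanate ratios, 3.03 and 2.32. Rsub_11535 went from 18.01, 26.0 and 32.5 CPM in the DMSO libraries of the isocyanate set to 152, 251 and 264 CPM at D1. Rsub_04959 went from 32.0, 84.8 and 82.3 CPM to 219, 375 and 419 CPM. In both genes replicate A was the lowest library of these groups. Rsub_11535 also had the highest ratio of any member in a chemical outside the rule, 1.90 with 4-chlorophenyl methyl sulfone. Its methoxyphenol ratio at D1 was 3.402, so both ratios of the rule lay above it.

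The members spanned a wide range of levels. The highest in DMSO were Rsub_05319, with a mean of 2108 CPM over the 18 DMSO libraries, and Rsub_08785, with 1410 CPM. The lowest were Rsub_09845, with 5.35 CPM, and Rsub_11516, with 6.98 CPM. The median member was at 45.5 CPM, against 39.8 CPM for the 9381 genes. Mean DMSO levels under 10 CPM were found in 11 members and of at least 100 CPM in 20.

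The extremes of level differed in how steady they were. Rsub_05319 went from 1840, 2419 and 2833 CPM in DMSO to 6767, 10025 and 10291 CPM at D1 of the methoxyphenol. In the isocyanate set it went from 1643, 2343 and 2494 CPM to 5941, 7560 and 7317 CPM, and so moved from the largest contributor among the members to a still larger one with both chemicals. Rsub_08785 went from 1227, 1429 and 1695 CPM to 2723, 3059 and 2912 CPM with the methoxyphenol, and from 1433, 2038 and 2133 CPM to 2701, 3244 and 3360 CPM with the isocyanate. Rsub_11516, of rank 4 by score, rested on single libraries at D1. It was at 51.4, 14.5 and 7.72 CPM with the methoxyphenol and at 7.73, 9.77 and 26.8 CPM with the isocyanate, from 1.37 to 5.39 CPM in the 6 DMSO libraries. The D1 and DMSO libraries did not overlap, but 1 library of each D1 group stood far above the others. Rsub_09845 was at 7.19, 21.3 and 23.2 CPM at D1 of the methoxyphenol and at 21.3, 23.9 and 25.2 CPM at D1 of the isocyanate, from 0.825 to 11.5 CPM in the 6 DMSO libraries.

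Among the other 10 chemicals, the one with the highest D1 ratio for a member was 4-chlorophenyl methyl sulfone in 17 members, cis-nonachlordane in 11, Fipronil carboxamide in 9, and Metolachlor OA and Metribuzin-DA in 7 each. The remaining 9 members were spread over 1(2H)-Phthalazinone with 4, Cetirizine Hydrochloride and Fexofenadine with 2 each, and Gabapentin with 1. That highest other ratio had a median of 0.45 and a range of -0.05 to 1.90. It reached 0.5 in 28 members and was below 0 in 2. The rule itself fixed that each member's ratios in the 2 chemicals lay above this value, so nothing is read from that. The members were not genes at the solvent level in all others.

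Away from D1, the members' median ratio to DMSO was smaller at each label from D2 to D5 for both chemicals, and stayed near the D5 value at D6 and D7. The DMSO libraries were used by the rule, so these values are also a description. The median log2 ratio with the methoxyphenol was 1.13 at D2, 0.54 at D3, 0.28 at D4, 0.23 at D5, 0.29 at D6 and 0.28 at D7. With the isocyanate it was 0.80, 0.47, 0.31, 0.27, 0.24 and 0.20 at the same labels. The drop was the steeper with the methoxyphenol, and from D3 on the 2 medians lay close together. The methoxyphenol ratio was the higher in 48 of 60 members at D2, 30 at D3 and 30 at D7. Members with a ratio of at least 0.5 in both chemicals numbered 41 at D2, 17 at D3, 6 at D4, 5 at D5, 5 at D6 and 7 at D7. Over all 9381 genes the share was 2.43% at D2, 1.23% at D3 and between 0.99% and 1.72% at D4 to D7. For a single chemical, 52 members reached 0.5 at D2 with the methoxyphenol (8.91% of all genes) and 46 with the isocyanate (7.66%). At D3 the counts were 31 (6.41%) and 28 (5.24%), and at D7 they were 12 (6.72%) and 10 (6.86%).

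In the partner chemicals the medians stayed near 0. They lay between -0.02 and 0.09 over the 7 levels of Metribuzin-DA and between 0.04 and 0.11 over those of Metolachlor OA. The chemical with the next highest median at D1 was 4-chlorophenyl methyl sulfone, at 0.28, which went to 0.19 at D2 and -0.02 at D7. cis-nonachlordane followed with 0.18 at D1 and 0.08 at D7.

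As a share of all counts, the 60 members made up 1.154% ± 0.128 (SD, n = 3) of the DMSO libraries of the methoxyphenol set, with 1.02%, 1.16% and 1.28% in replicates A, B and C. At D1 of the methoxyphenol the share was 3.71%, 4.75% and 4.79%, a mean of 4.41% ± 0.611 (SD, n = 3), and no D1 library came near a DMSO library. At D2 it was 3.17% ± 0.287, at D3 1.83% ± 0.137 and at D7 1.37% ± 0.1302 (SD, n = 3 each). With the isocyanate the share went from 1.24% ± 0.147 in DMSO to 2.78% ± 0.245 at D1, 2.27% ± 0.258 at D2, 1.85% ± 0.228 at D3 and 1.51% ± 0.0963 at D7 (SD, n = 3 each). The partner chemicals stayed between 1.151% and 1.21% for Metribuzin-DA and between 1.24% and 1.32% for Metolachlor OA over D1 to D7.

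**Figure D2:**
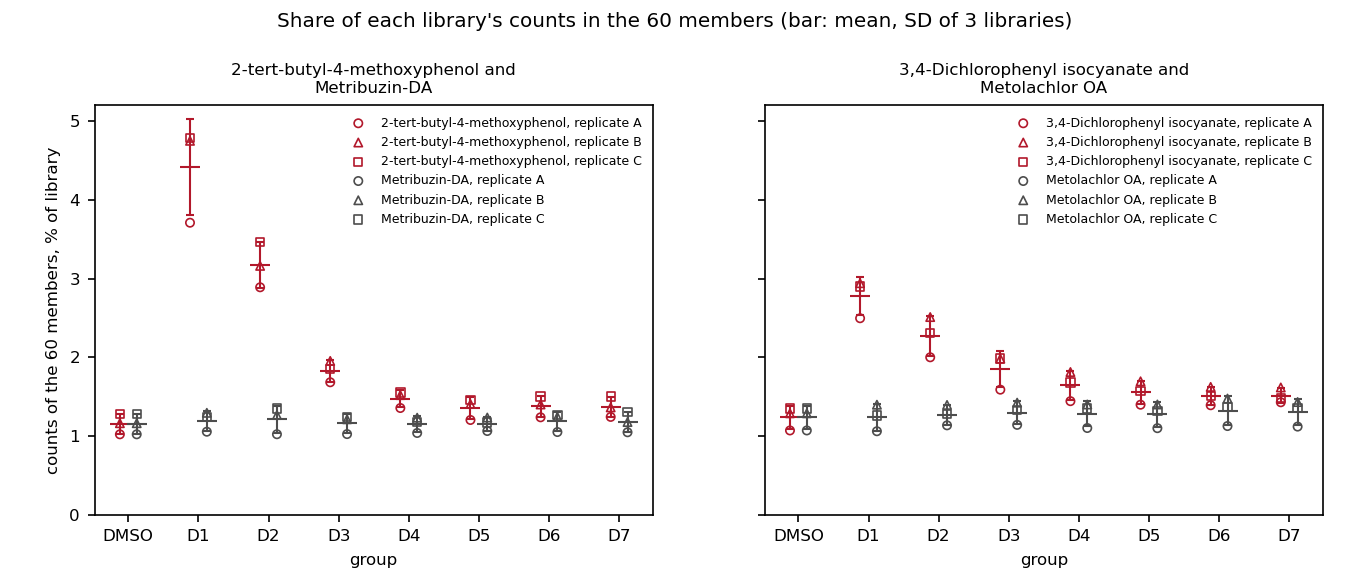
Percentage of each library's counts that fell in the 60 members, by group, with the mean and SD of 3 libraries. Circles, triangles and squares are replicates A, B and C. The share at D1 is 4.41% for the methoxyphenol and 2.78% for the isocyanate, and the partner chemicals (grey) stay near their DMSO libraries.

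The libraries of D2 to D7 were not used by the rule, and contrasts among them were tested with edgeR's quasi-likelihood test. Each fit held the 36 libraries of D2 to D7 of both chemicals of a control set. P-values were adjusted by Benjamini-Hochberg over all genes tested, and a gene is called at an adjusted p under 0.05. All 60 members passed the filter on low counts in the fits of both sets.

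With the methoxyphenol, 36 of 60 members were higher at D2 than at D7 and none was lower. Over all 9493 genes tested, 2.38% were called higher, so the members held 15.9% of the 226 such calls. The median log2 difference was 1.06 for the members, with a range of -0.32 to 3.57, and 0.01 for all genes. In 47 members all 3 D2 libraries lay above all 3 D7 libraries, against 5.78% of all genes. At D3, 11 members were higher than at D7 (0.485% of all genes were), and at D4 1 was (0.0421%). At D5 and D6 none was, as for all genes (0% each). An unadjusted edgeR p under 0.05 was found in 1 and 0 members, and in 310 and 214 of the 9493 genes. DESeq2, another count test, called 3 members at D4 and 0 at D5 and D6. A test for any difference among D2 to D7, which needs no order of levels, called 37 members, against 2.62% of all genes.

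The largest rise was that of Rsub_07655, at 295, 255 and 210 CPM at D2 and 22.4, 25.8 and 18.5 CPM at D7. The D7 libraries lay within the range of the Metribuzin-DA libraries at D7, 17.8 to 28.3 CPM, while every D2 library was far above. The log2 difference was 3.57 ± 0.288 (SE), with an edgeR adjusted p of 1.85e-13. Rsub_09468 was at 92.6, 120 and 140 CPM at D2 and 15.2, 13.7 and 18.5 CPM at D7, a log2 difference of 2.97 ± 0.329 (SE) and an edgeR adjusted p of 2.49e-09. Rsub_11815 showed the tightest libraries of the named genes. It was at 2725, 2969 and 3120 CPM at D2, 1597, 1714 and 1559 CPM at D3, 878, 888 and 817 CPM at D4 and 568, 567 and 462 CPM at D7. Its groups D2, D3, D4 and D7 did not overlap. Against D7 it was higher by 1.64 ± 0.105 (SE) at D3 and by 0.70 ± 0.104 (SE) at D4, with edgeR adjusted p of 4.41e-16 and 0.000179, and it was the 1 member called at D4.

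With the isocyanate, 16 of 60 members were higher at D2 than at D7 and none was lower. Only 24 of the 9494 genes tested were called higher (0.253%), and 66.7% of those calls were members. Without D2 replicate C, 14 genes were called higher, 10 of them members. Without D7 replicate A, 10 genes were, all of them members. The median log2 difference of the members was 0.57, with a range of -0.32 to 3.12, against -0.00 for all genes. In 37 members all 3 D2 libraries lay above all 3 D7 libraries (6.33% of all genes). At D3, 1 member, Rsub_05085, was higher than at D7, which was also the only gene called higher (0.0105%). That count was 0 without D3 replicate C and 2 without D7 replicate B. No member was called at D4, D5 or D6 by edgeR or DESeq2 (0% of all genes were called higher by edgeR at each). An unadjusted edgeR p under 0.05 was found in 4, 6 and 1 members, and in 653, 488 and 341 of the 9494 genes. The test for any difference among D2 to D7 called 14 members, against 0.548% of all genes. That background of 52 genes was 22 without D2 replicate A, 16 without D2 replicate C and 88 without D7 replicate C, with 12, 10 and 15 members.

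Rsub_00721 had the largest difference, but on few counts. It was at 16.3, 10.4 and 14.7 CPM at D2 and at 0.926, 3.57 and 0 CPM at D7, where the libraries held 1, 4 and 0 counts. The log2 difference was 3.12 ± 0.650 (SE) with an edgeR adjusted p of 0.0101. Against D6 in place of D7 the difference was 1.151 with an adjusted p of 0.396, and over the 12 alternatives that gave a value the adjusted p ran from 0.00397 to 0.396. The call was lost in 6 of these. DESeq2 and the filter on a mean of at least 10 counts gave no adjusted p for this gene. Rsub_11535 was at 111, 158 and 207 CPM at D2 and 25.9, 46.4 and 55.6 CPM at D7, without overlap. Its log2 difference was 1.90 ± 0.396 (SE) with an edgeR adjusted p of 0.0101. The call was lost without D2 replicate C, without D7 replicate A and with DESeq2, and the adjusted p ran from 1.45e-09 to 0.139 over the alternatives.

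The calls in the 2 chemicals can be set side by side because their fits share no library. Of the 9291 genes tested in both, 22 were higher at D2 than at D7 in both, and 15 of these were members. A further 21 members were called with the methoxyphenol alone, 1 (Rsub_00721) with the isocyanate alone, and 23 with neither. Being called in one and not the other does not show a difference between the chemicals, which is tested below. Both log2 differences were above 0 in 57 of 60 members, against 26.1% of all genes tested. Across the 60 members the 2 differences had a Pearson correlation of 0.49, and across all genes 0.0756. These are correlations over genes, which are not independent replicates, within 36 libraries each.

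**Figure D3:**
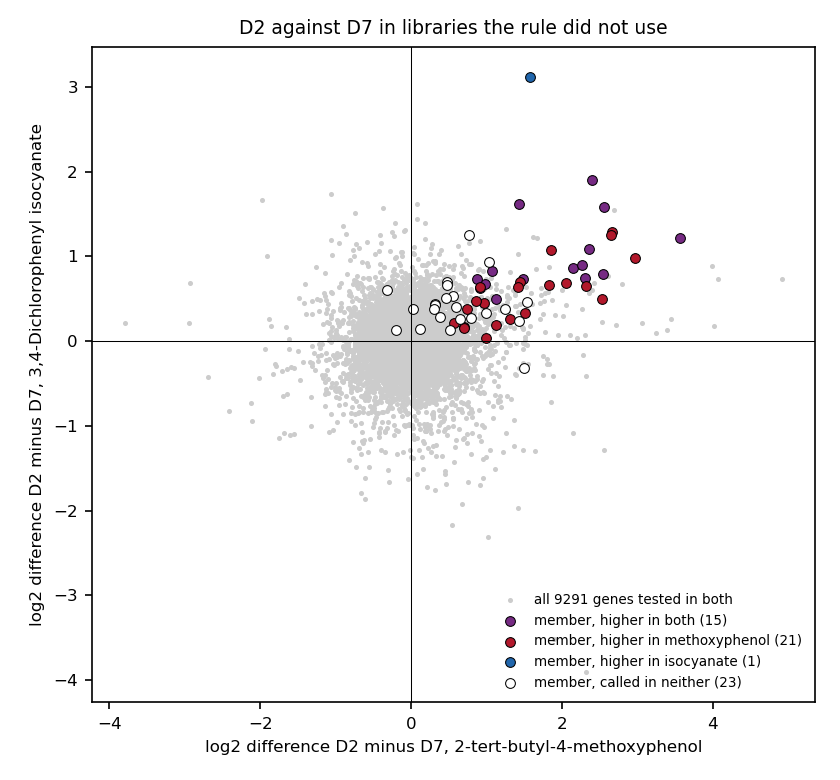
Log2 difference between D2 and D7 with the methoxyphenol (x axis) and the isocyanate (y axis) for 9291 genes tested in both fits (grey) and the 60 members (large points, coloured by edgeR call). Both differences are above 0 in 57 members, and 15 members are called in both.

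Comparing each chemical with its partner at the same level asked whether treated libraries of the same control set differed. Against Metribuzin-DA at D2, 40 of 60 members were higher with the methoxyphenol and none was lower, with 5.4% of all genes called higher. Over all genes, 513 were called higher, and 340 without methoxyphenol replicate C or 330 without Metribuzin-DA replicate A, with 36 members in both cases. The median log2 difference was 1.20 for the members and -0.02 for all genes. In 46 members the 3 methoxyphenol libraries lay above those of Metribuzin-DA (10.5% of all genes). The count fell to 19 at D3 (1.79% of all genes), 8 at D4 (1.27%), 3 at D5 (0.643%), 2 at D6 (1%) and 1 at D7 (0.632%). The count at D5 was 1 without methoxyphenol replicate B. The count at D6 was 1 without methoxyphenol replicate A and 0 without B or without C. At D7 it was 0 without methoxyphenol replicate B or Metribuzin-DA replicate A or B, and 5 without Metribuzin-DA replicate C. Without that last library 243 genes were called higher at D7, against 60 in the main fit.

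Against Metolachlor OA at D2, 24 of 60 members were higher with the isocyanate and none was lower, with 0.98% of all genes called higher. The median log2 difference was 0.68 for the members and -0.00 for all genes. Over all genes, 93 were called higher, and leaving out single libraries moved this background more than the members' count. It was 46 genes with 17 members without isocyanate replicate B, and 33 with 18 without C. For Metolachlor OA it was 52 with 18 without replicate A, 41 with 18 without B and 45 with 17 without C. In 41 members the 3 isocyanate libraries lay above those of Metolachlor OA (9.52% of all genes). At D3 the count was 6 (0.305% of all genes), at D4 2 (0.274%), at D5 3 (0.39%), at D6 2 (0.653%) and at D7 2 (0.906%). The count at D3 was 13 without isocyanate replicate A, 0 without B and 1 without C, so it rested on single libraries. Without isocyanate replicate B or C it was 1 at D4 and 1 at D5. At D7 the count was 4 without isocyanate replicate A, 1 without C, and 0 without isocyanate replicate B or Metolachlor OA replicate A or B.

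**Figure D4:**
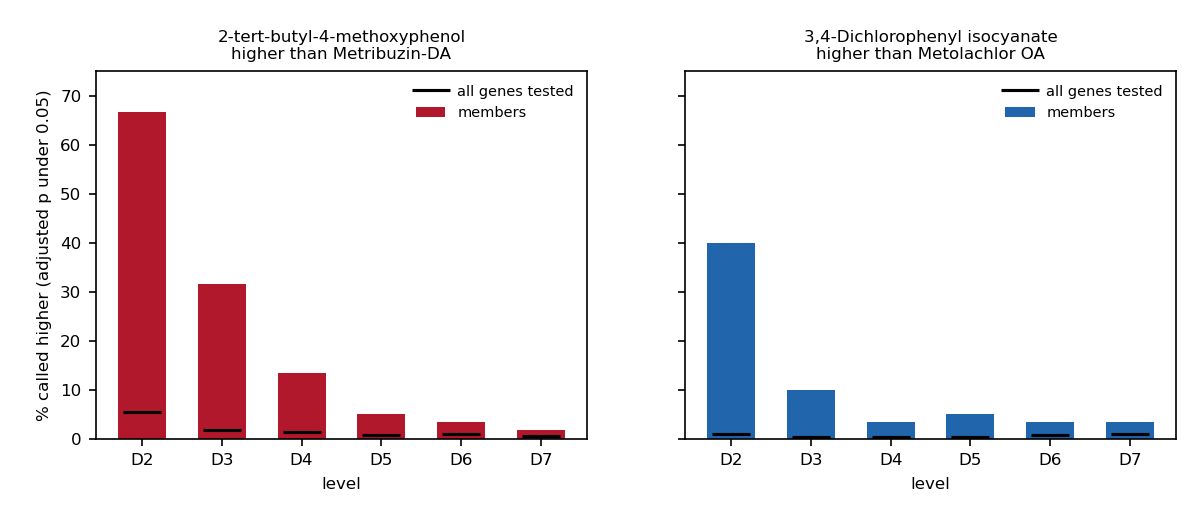
Percentage of the 60 members (bars) and of all genes tested (black lines) called higher with the methoxyphenol than with Metribuzin-DA (left) and with the isocyanate than with Metolachlor OA (right), at each level (edgeR, adjusted p under 0.05). The counts of members are 40 and 24 at D2 and 1 and 2 at D7.

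Rsub_09510 was called higher than in the partner chemical at all 6 levels in both sets, 12 of 12 comparisons. The member with the next most calls, Rsub_11815, had 7. By score Rsub_09510 had rank 56. Its D1 ratio was above 0 in the other 10 chemicals too, from 0.22 with Fexofenadine to 0.88 with 4-chlorophenyl methyl sulfone. In the partners it was 0.40 with Metribuzin-DA and 0.50 with Metolachlor OA. With the methoxyphenol Rsub_09510 was at 1196, 1105 and 1249 CPM at D2 and 198, 245 and 207 CPM at D7. Metribuzin-DA libraries were at 149, 177 and 158 CPM at D2 and 114, 137 and 169 CPM at D7. The log2 difference between these chemicals was 2.94 ± 0.148 (SE) at D2 and 0.60 ± 0.149 (SE) at D7, with edgeR adjusted p of 8.68e-21 and 0.0256. The D5 call was lost without methoxyphenol replicate B (adjusted p of 0.168, range 0.00152 to 0.168). The D6 call was lost without replicate B or C and with D1 and DMSO libraries added (0.239, 0.131 and 0.0554, range 0.0093 to 0.239). The D7 call was lost without methoxyphenol replicate B or C and without Metribuzin-DA replicate A or B, and its adjusted p ran from 0.00326 to 0.207 over the alternatives.

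With the isocyanate Rsub_09510 was at 413, 418 and 349 CPM at D2 and at 276, 343 and 222 CPM at D7, while Metolachlor OA was at 208, 239 and 179 CPM and at 174, 170 and 184 CPM. The difference from Metolachlor OA was 0.91 ± 0.145 (SE) at D2, 0.79 ± 0.147 at D3, 0.86 ± 0.148 at D4, 0.74 ± 0.149 at D5, 0.87 ± 0.150 at D6 and 0.64 ± 0.149 at D7. The edgeR adjusted p at D7 was 0.0143 and ran from 0.00247 to 0.164 over the alternatives. The D7 call was lost without isocyanate replicate B or Metolachlor OA replicate A or B. The D3 call was lost without isocyanate replicate B (0.204, range 0.000331 to 0.204). The difference between D2 and D7 within the isocyanate was 0.50 ± 0.143 (SE), which was not called (edgeR adjusted p of 0.136).

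At D2 the largest called differences from Metribuzin-DA were those of Rsub_07655 and Rsub_11815. Rsub_07655 was at 12.6, 25.1 and 18.7 CPM in the Metribuzin-DA libraries, so the methoxyphenol was higher by 3.83 ± 0.3001 (SE, edgeR adjusted p of 5.06e-14). Rsub_11815 was at 337, 409 and 374 CPM there, a difference of 3.04 ± 0.1102 (SE, edgeR adjusted p of 3.34e-26). The largest called differences from Metolachlor OA at D2 were those of Rsub_11535 and Rsub_09845. Rsub_11535 was at 10.4, 36.3 and 39.2 CPM with Metolachlor OA, a difference of 2.46 ± 0.414 (SE, edgeR adjusted p of 0.000359). Rsub_09845 was at 23.9, 23.6 and 34.8 CPM with the isocyanate and 2.60, 9.68 and 6.54 CPM with Metolachlor OA, a difference of 2.10 ± 0.415 (SE, edgeR adjusted p of 0.0032). In each of these 4 comparisons the groups did not overlap.

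Only 2 members were called lower with the isocyanate than with Metolachlor OA at D2 to D7, both at D7. In that contrast 109 of the 9494 genes tested were called lower and 86 higher, and 2 members were among the higher. Rsub_05085 was at 40.8, 38.3 and 39.96 CPM with the isocyanate and at 76.2, 69.2 and 60.8 CPM with Metolachlor OA, a log2 difference of -0.82 ± 0.214 (SE, edgeR adjusted p of 0.0304). The DMSO libraries of that set, at 51.7 to 65.6 CPM, lay above all 3 isocyanate libraries and overlapped those of Metolachlor OA. Rsub_04939 was at 15.7, 19.6 and 6.08 CPM with the isocyanate and at 35.9, 38.1 and 30.4 CPM with Metolachlor OA, a difference of -1.36 ± 0.374 (SE, edgeR adjusted p of 0.0415). Without isocyanate replicate B or C, or Metolachlor OA replicate A or B, neither gene was called, and without Metolachlor OA replicate C Rsub_04939 was not. The adjusted p ran from 0.0165 to 0.155 for Rsub_05085 and from 0.0132 to 0.286 for Rsub_04939 over the alternatives.

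**Figure D5:**
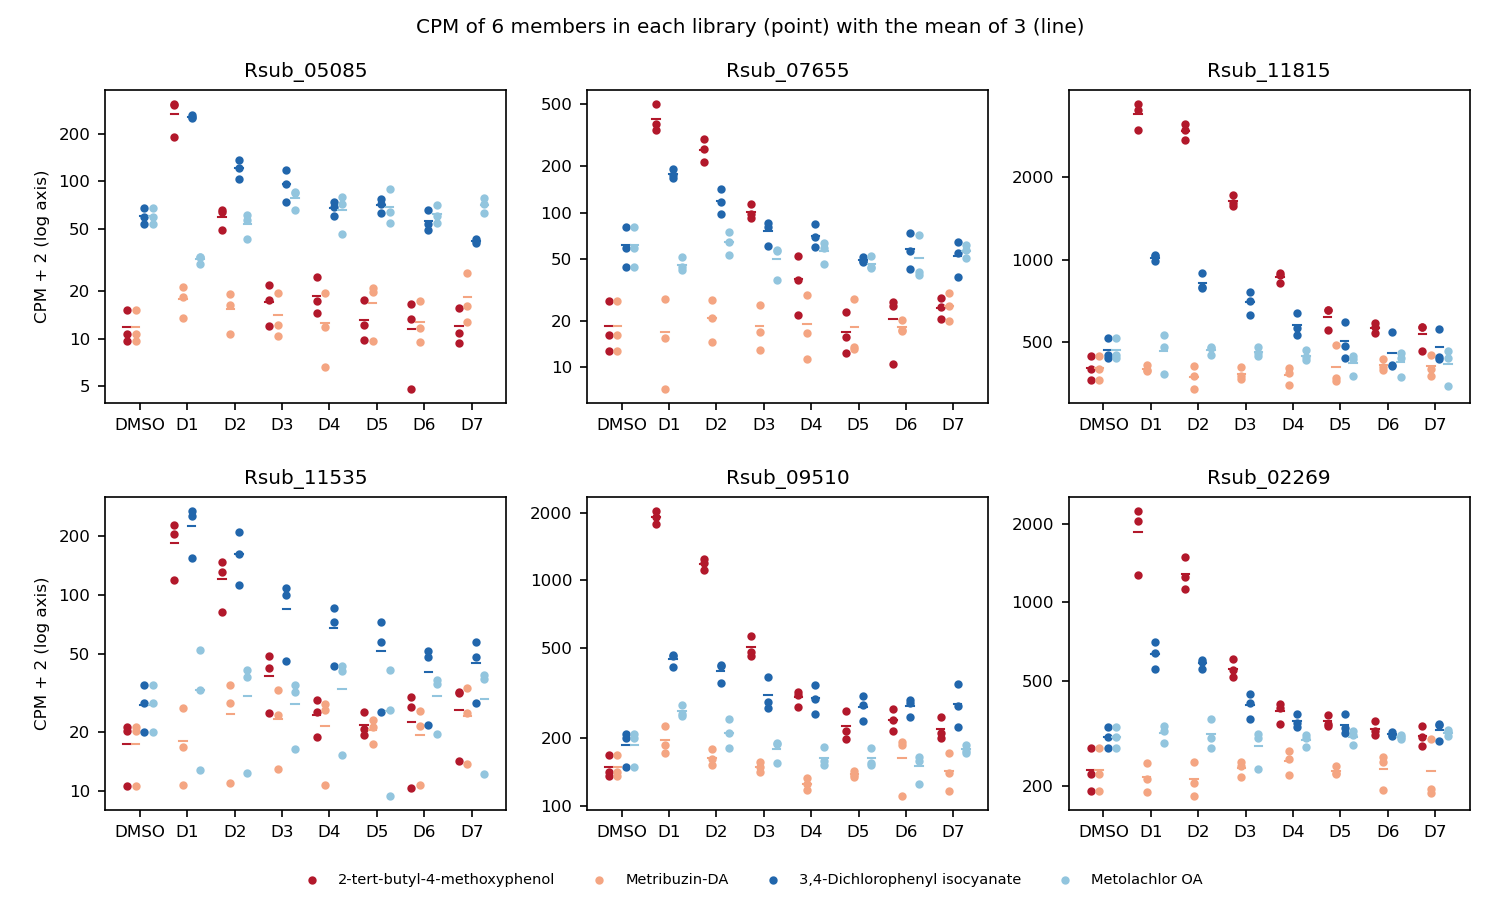
CPM + 2 (log axis) of 6 members in each library of the 2 control sets, by group, with the mean of 3 libraries as a line. With the methoxyphenol (dark red) all 6 are highest at D1, and Rsub_09510 with the isocyanate (dark blue) stays above Metolachlor OA (light blue) through D7.

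An interaction contrast compared the D2 to D7 difference of a chemical with that of its partner, so that an offset shared by D2 and D7 drops out. For the methoxyphenol less Metribuzin-DA, 26 of 60 members were higher and none lower, against 1.2% of all genes. The largest of those called were Rsub_07655, at 3.89 ± 0.461 (SE, edgeR adjusted p of 3.91e-08), and Rsub_05085, at 2.79 ± 0.581 (SE, edgeR adjusted p of 0.00243). Rsub_05085 had been at 63.2, 47.3 and 62.1 CPM at D2 and 13.8, 8.88 and 7.40 CPM at D7 with the methoxyphenol. Metribuzin-DA libraries were at 14.4, 8.73 and 17.2 CPM and at 10.7, 24.1 and 14.2 CPM. With D6 in place of D7 the interaction for Rsub_05085 was 2.29 with an adjusted p of 0.0529, within a range from 0.000287 to 0.0529 over the alternatives.

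For the isocyanate less Metolachlor OA, 5 members were higher and none lower, and these were all the genes called higher among 9494 (0.0527%). The largest of those called were Rsub_05085, at 2.02 ± 0.290 (SE, edgeR adjusted p of 0.000156), and Rsub_02269, at 0.89 ± 0.152 (SE, edgeR adjusted p of 0.00296). The isocyanate libraries of Rsub_05085 were at 134, 102 and 120 CPM at D2 and near 40 CPM at D7. Those of Metolachlor OA went the other way, from 40.7, 54.8 and 58.8 CPM to 60.8 CPM or more. Rsub_02269 was at 603, 556 and 593 CPM at D2 and 295, 338 and 341 CPM at D7 with the isocyanate, against 276 to 357 CPM in the same groups of Metolachlor OA. The count was 2 without isocyanate D2 replicate B or C. It was 3 without Metolachlor OA D2 replicate A or C and without its D7 replicate B or C.

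A fit of the D2 to D7 libraries of the methoxyphenol and the isocyanate together tested whether the D2 to D7 difference was larger in one of them. It was larger with the methoxyphenol in 12 of 60 members and larger with the isocyanate in none, where 0.881% of all genes were called in the first direction. The members' median was 0.50. The largest of those called were Rsub_07655, at 2.33 ± 0.369 (SE, edgeR adjusted p of 7.5e-05), and Rsub_09510, at 2.01 ± 0.202 (SE, edgeR adjusted p of 3.38e-09). Some members had like values in both. For Rsub_05319, at 4856, 5941 and 7283 CPM at D2 of the methoxyphenol and 4314, 6146 and 5590 CPM at D2 of the isocyanate, the contrast was 0.22 ± 0.248 (SE, edgeR adjusted p of 0.857). That does not show that the chemicals act alike on it. The chemicals came from different control sets, and set and chemical cannot be told apart in this contrast except for offsets common to D2 and D7.

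In the other 10 chemicals, no member was called at D2 against D7 by edgeR with the main settings. DESeq2 called 0 members higher and 1 lower, with Fipronil carboxamide. For that chemical edgeR also called 1 lower without a filter on low counts, with the replicate block and without D2 replicate C. Between 59 and 60 members were tested in each chemical, and 3 to 8 of them had an unadjusted edgeR p under 0.05. Over all genes tested, this number ran from 348 of 9637 with cis-nonachlordane to 979 of 9363 with Gabapentin. Gabapentin had 3 such members. Fipronil carboxamide had 8, with 444 of 9280 genes. The background was also low, from 0 genes called higher in most of these chemicals to 13 with Gabapentin (0.139% of the genes tested), 6 with Fipronil carboxamide (0.0647%), 5 with 1(2H)-Phthalazinone (0.0534%) and 5 with Metribuzin-DA (0.0527%). Members' medians ran from -0.05 with Metolachlor OA to 0.14 with Gabapentin.

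Each chemical was compared at D2 with its D7 and with its partner. In these 4 comparisons, 44 members were called higher in at least 1, 14 in all 4 and 16 in none. The share of all genes called in at least 1 was not counted, so the 44 and the 16 have no background to be read against. Genes called against D7 in both chemicals were 0.237% of the 9291 tested in both fits. The share called in all 4 can thus be no larger than that. In single comparisons, the share called higher was 2.38% against D7 and 5.4% against the partner with the methoxyphenol. For the isocyanate it was 0.253% and 0.98%. The 14 called in all had a median mean DMSO level of 341 CPM, and the 16 called in none of 18.2 CPM. Their median D1 ratios with the methoxyphenol were 2.80 and 1.05, and with the isocyanate 1.14 and 0.96. The members with no call thus had the lower median level and the smaller median D1 ratios, which moved together, so their parts in the missing calls cannot be told apart.

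The replicate letter moved with the members' level in the 2 control sets. Replicate A had the lowest share of counts in the members in 30 of 30 groups, treated and DMSO alike, and in 74 of the 90 groups of the series. The order was seen after looking at the data. Rsub_04959, Rsub_05319 and 2 other members, 4 in all, were lowest in replicate A in all 30 groups. At least 25 of the 30 groups had this order in 8 members (13.3%), against 34 of the 9381 genes (0.362%), and at least 20 in 15 members (25%), against 2.3%. The labels do not say what a letter marks. Within a letter, the median log2 ratio of D2 to D7 over the members was 0.97 in A, 0.94 in B and 0.99 in C with the methoxyphenol. With the isocyanate it was 0.51, 0.56 and 0.66. The ratio was above 0 in all 3 letters for 53 and 43 members, and for 13 members each in Metribuzin-DA and Metolachlor OA. The share of all genes above 0 in all 3 letters was not counted, so nothing is read from these counts. Over the 9381 genes the median ratio in A, B and C was -0.08, -0.06 and -0.08 with the methoxyphenol. It was -0.0018, -0.016 and -0.0015 with the isocyanate.

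The genes most like Rsub_05085 over the 90 group means of log2 CPM were Rsub_06150 (Pearson r = 0.898) and Rsub_10585 (r = 0.888), neither of them a member. Their isocyanate ratios at D1 were 0.36 and 0.39, under the 0.5 asked for by the rule. The other 59 members had a median r of 0.44 with Rsub_05085 and a range of -0.44 to 0.85, against a median of 0.14 over 9380 genes. Only 3 members were among the 59 genes most like it. The correlations are a description over group means that share control sets and libraries.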

How the data were processed

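Polyadenylated RNA from each library was prepared with a 3′ tag kit that carries molecular identifiers, per the labels' protocols. The authors deposited raw counts per gene, with 24 columns per chemical. Among the tools in the submitters' processing notes are featureCounts 2.0.6, SAMtools 1.15.1, STAR 2.7.10a and fastp 0.23.2, with no order of use. Collapsing of reads by identifier, strandedness, gene models and genome build were not given in the sources used here. A 3′ count needs no length scaling, but levels of different genes are not compared as molecules. Counts were scaled to CPM by library total for the members and the values shown.

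The members and the comparisons were chosen with earlier results of these data known. Because the rule used D1 and DMSO, tests used D2 to D7 only: edgeR 4.0.16 in R 4.3.3 (quasi-likelihood, filterByExpr, TMM scaling), with Benjamini-Hochberg adjustment over all genes tested and a threshold of 0.05. The genes named in tests are the called members with the largest log2 difference among those whose 3 libraries lay wholly above or below the other 3 (for interactions, at D2 against D7), at most 2 in each direction. Genes named for other reasons, such as Rsub_09510 for its number of calls and Rsub_05319 in the comparison of both chemicals, were picked after their values were seen. Alternatives were DESeq2 1.42.0, another scaling, other filters, D6 in place of D7, a replicate block, the 18 libraries of a chemical alone, added D1 and DMSO libraries, and each library left out. On simulated counts with the means of these libraries, the D2 to D7 comparison recovered 53.73% of 2-fold changes with the methoxyphenol and 65.67% with the isocyanate. Of 1.5-fold changes it recovered 23.88% and 31.34%. There were 6 false calls among 9446 genes and 7 among 9460. The libraries were simulated independently, without the order by replicate letter seen in the data.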

Additional observations from a re-analysis of the deposited data

Results flagged for a closer look

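Values are given here for contrasts whose effect differed between chemicals by a test of the difference itself (edgeR, Benjamini-Hochberg adjusted over all genes). The D2 to D7 difference was larger with the methoxyphenol than with Metribuzin-DA in 26 members, larger with the isocyanate than with Metolachlor OA in 5, and larger with the methoxyphenol than with the isocyanate in 12. Among them, Rsub_07655 differed by 3.89 and Rsub_05085 by 2.79 on the log2 scale between the methoxyphenol and Metribuzin-DA. Rsub_05085 differed by 2.02 and Rsub_02269 by 0.89 between the isocyanate and Metolachlor OA. Rsub_07655 differed by 2.33 and Rsub_09510 by 2.01 between the methoxyphenol and the isocyanate. No test for a single outlying value was applied to gene values, as each group held only 3 libraries.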

How the results depend on the processing

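Of 469 values of named genes under the alternatives, 420 kept direction and call, 49 were no longer called and 0 reversed. For the D2 comparisons, the interactions, the test for any difference and the contrast between the chemicals, 163 of 173 counts of members stayed within 1.5 times of the reported one and 10 moved. For the comparisons at D3 to D7, whose counts are small, 152 of 200 did and 48 moved. The 173 include D2 against D7 in the other 10 chemicals, where 0 members were called higher under every setting. Leaving out 1 library gave 33 to 38 members at D2 against D7 with the methoxyphenol and 10 to 16 with the isocyanate, 36 to 43 and 17 to 24 against the partner at D2, 21 to 28 and 2 to 5 for the interactions, 31 to 37 and 10 to 15 for any difference, and 10 to 14 between the chemicals. The replicate letters were not taken as a pairing, since no label gives them a meaning and not every correlation of same-lettered deviations from the group mean was over 0.1. Between D2 and D7 these were 0.154, 0.0763 and 0.205 with the methoxyphenol and 0.189, 0.0362 and 0.211 with the isocyanate, and 6 of 6 libraries correlated best with their own letter in each chemical. Against the partner at D2, 4 of 6 did in the methoxyphenol set and 2 of 6 in the isocyanate set. The match by letter between D2 and D7 is a hint from the data, not the design, of a tie between same-lettered libraries of a chemical. The members' lower share in replicate A was seen in all 30 groups of the 2 control sets, DMSO included. That order by letter was therefore not limited to a single chemical. With the replicate block, the isocyanate interaction held 12 members and any difference 22. Against the partner, the block gave 23, 14, 3, 6 and 7 members at D3 to D7 with the methoxyphenol and 19, 7, 6, 6 and 8 with the isocyanate. Against Metribuzin-DA it called 283, 223, 155, 204 and 184 genes higher, where the main fit called 170, 121, 61, 95 and 60. Against D7 the block gave 3 members at D4 with the methoxyphenol, among 8 genes called higher, and 6 at D3 with the isocyanate. DESeq2 gave 4 members at D6 and 4 at D7 against Metribuzin-DA, among 142 and 107 genes called higher, and 4 at D7 against Metolachlor OA. The background at D3 to D7 with the isocyanate is not given for these settings, so those counts cannot be set apart from all genes. Over all genes, the calls at D2 against D7 with the isocyanate went from 24 to 41 with the block and to 15 with its own 18 libraries, those against Metolachlor OA at D2 from 93 to 158, those of the cross contrast from 84 to 195, and any difference with the isocyanate from 52 to 125 with the block, 97 with DESeq2 or without a filter and 16 with its own 18 libraries. The isocyanate interaction went from 5 to 14 genes with the block and 8 without a filter. The cause of these moves was not tested. Under other settings of the member rule, 42 (minimum of 20 CPM) to 59 (pseudocount of 1) of the 60 members were kept, 45 with medians in place of means, and leaving out 1 library kept 51 to 59.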

Other observations

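The members' level in DMSO varied between the 6 control sets. The range of a member's mean log2 level over the sets had a median of 0.83, against 0.71 for all genes with at least 5 CPM, and ran from 0.17 to 2.81. No test was made between control sets.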
